A study of Mus musculus with 10 samples.

Results

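The genes described here are 6 genes of the granulocyte lineage (*Mpo*, *Elane*, *Prtn3*, *S100a8*, *S100a9* and *Itgam*) and 4 genes of Fc receptors (*Fcgr2b*, *Fcgr3*, *Fcgr4* and *Fcer1g*). These 10 genes were chosen by name from 23195 genes, 16973 of them protein coding, that were compared between hearts of *Nos1ap* null and wild-type mouse embryos. The choice was made with the difference between the genotypes already known, so that difference is given below as a description. No test was made of these genes as a set. Of the 10, 9 were part of a limma fit over all fitted genes, and nothing is read from their outcome there.

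RNA-seq libraries of polyadenylated RNA were prepared from the hearts of male embryos at embryonic day 13.5, labelled as strain C57BL6/J, of which 5 were wild type and 5 were *Nos1ap* null. The null embryos were homozygous for the tm1d allele, in which exon 4 of *Nos1ap* is deleted and from which the *lacZ* and *neo* cassettes of the targeting vector were removed. The deletion was made by CMV-Cre, which acts in the germ line and in all tissues, so the allele was null in blood cells and vessels as well as in heart muscle. The targeted ES cells came from C57BL/6N and the allele was maintained by backcrossing to C57BL/6J, and the sources used here do not say whether embryos of the groups shared litters. The spread between libraries is therefore a spread between embryos of unstated parentage.

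Granulocytes arise from myeloid progenitors, which at this stage of mouse development are made mainly in the fetal liver and reach other organs through the blood. Promyelocytes fill the primary granules with myeloperoxidase and the neutrophil serine proteases, and maturing neutrophils then accumulate the calgranulins S100A8 and S100A9 in the cytosol. Fc gamma receptors bind the constant part of immunoglobulin G on neutrophils, monocytes and macrophages, where the activating receptors signal through the common gamma chain and FCGR2B inhibits. The fetal heart has resident macrophages, which express *Itgam* and Fc receptors as well.

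The deposited values are group means, from which the read pairs of each library were derived as whole numbers. Libraries are numbered within each genotype by falling size factor, the factor by which the authors scaled a library, and could not be tied to the numbered replicates of the labels. The estimated depth, in read pairs counted in genes and not in all pairs sequenced, was 11328000 to 14023000 per library. At this depth 3 read pairs, taken as the limit that a count of 0 allows, correspond to 0.214 to 0.265 per 1000000 counted read pairs. All values below are normalized counts, that is, read pairs divided by the size factor, unless read pairs are named, and errors are SD over 5 libraries unless stated. *Nos1ap* itself averaged 144 ± 14.4 (126 to 161) in wild type and 39.8 ± 5.20 (31.1 to 44.4) in null libraries. The 12 cardiomyocyte markers of the table had wild-type means of 1245 to 128162, and their log2 ratios of null to wild type ran from -0.07 to 0.15. Wild-type library 3 held the most counts of the lung epithelium list, 22.4 against 3.87 to 6.21 in the other wild-type libraries. Of this list only *Epcam*, *Foxa2* and *Sftpb*, named after their values were seen, were in the table. Their wild-type maxima were 13.2, 9.16 and 1.03. Those of *Epcam* and *Foxa2* made up the whole value of library 3, and that of *Sftpb* was in another library. Whether the counts come from lung was not tested. *Nos1ap* null library 2 held the most erythroid and platelet marker counts, 455 and 473.

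The promoters of the granule enzymes are shown first because these genes are switched on together in promyelocytes. RefSeq promoters (build GRCm38.p6, 250 bases before each RefSeq transcript start) were found for all 10 genes. They were searched on both strands for GAGGAA, a core bound by the myeloid factor PU.1, for TTGCNNAA, a core bound by C/EBP factors, and for TGTGGT, a core bound by RUNX factors. The bases shown run from the start of the window to the last base before an annotated exon (GENCODE M21), 5′ to 3′ on the plus strand, with every GAGGAA or its reverse complement TTCCTC in capitals.
*Mpo*, chr11:87793534-87793580: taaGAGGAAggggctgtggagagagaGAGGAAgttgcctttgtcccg
*Elane*, chr10:79886062-79886246: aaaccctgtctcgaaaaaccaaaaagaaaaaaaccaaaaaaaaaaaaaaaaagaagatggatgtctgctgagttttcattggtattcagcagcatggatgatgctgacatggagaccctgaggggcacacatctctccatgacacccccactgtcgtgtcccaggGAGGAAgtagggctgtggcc
*Prtn3*, chr10:79879417-79879613: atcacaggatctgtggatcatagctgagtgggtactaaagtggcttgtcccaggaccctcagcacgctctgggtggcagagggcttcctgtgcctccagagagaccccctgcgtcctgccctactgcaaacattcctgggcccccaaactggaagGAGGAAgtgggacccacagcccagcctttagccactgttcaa
*Itgam*, chr7:128062390-128062639: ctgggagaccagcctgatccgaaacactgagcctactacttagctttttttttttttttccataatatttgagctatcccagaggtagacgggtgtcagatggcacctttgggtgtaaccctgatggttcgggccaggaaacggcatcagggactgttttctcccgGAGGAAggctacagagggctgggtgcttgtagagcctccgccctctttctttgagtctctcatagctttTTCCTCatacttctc

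GAGGAA lay 247 and 224 bases before the RefSeq start in *Mpo*, 85 bases before it in *Elane*, 95 in *Prtn3*, and 84 and 15 in *Itgam*. The RefSeq starts of *Mpo*, *Elane* and *Prtn3* lie within the spans of these genes in GENCODE, and *Prtn3* has transcripts that begin further upstream. Only 47, 185 and 197 bases of these windows lie before an annotated exon, so the distances given are not from the GENCODE gene start. Promoters of *S100a8*, *Fcgr3* and *Fcgr4* held it as well, and those of *S100a9*, *Fcgr2b* and *Fcer1g* did not. Of 32851 promoters of the same length, 23.3% held it. TTGCNNAA was found in *S100a9* and *Fcgr3* and in 9.56% of all promoters, and TGTGGT in *S100a9* and *Fcgr4* and in 14.0%. The longer string GAGGAAGT, which was searched after these sequences had been seen and overlaps GAGGAA, stood in *Mpo*, *Elane*, *Prtn3*, *S100a8* and *Fcgr4* and in 2.44% of all promoters. These matches describe letters in the windows and were not tested for binding.

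The granule enzyme genes had few read pairs in either genotype and fewer in the null hearts. *Mpo* (chromosome 11, 87793581 to 87804413, plus strand) encodes myeloperoxidase, the enzyme of primary granules that makes hypochlorous acid. Wild-type libraries 1 to 5 held 12.2, 5.81, 11.2, 9.29 and 8.28 normalized counts of *Mpo*, from 14, 6, 11, 9 and 8 read pairs. *Nos1ap* null libraries 1 to 5 held 0.900, 1.01, 2.02, 5.37 and 4.36, from 1, 1, 2, 5 and 4 read pairs. Every null library was below every wild-type library, with a gap from 5.37 to 5.81 between the groups, which is less than 1 read pair. The group means were 9.35 ± 2.51 in wild type and 2.73 ± 2.03 in null, a log2 ratio of -1.78, and the fitted difference of log2 values was -1.61 (SE 0.394). In these bulk samples, fewer cells that express a gene and less of its RNA per cell cannot be told apart.

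*Prtn3* and *Elane* encode the serine proteases proteinase 3 and neutrophil elastase and are neighbours on chromosome 10, *Prtn3* at 79874476 to 79883174 and *Elane* at 79886247 to 79888215, both on the plus strand and 3072 bases apart. *Prtn3* values were 8.70, 6.78, 8.14, 6.19 and 7.24 in wild-type libraries 1 to 5 and 5.40, 1.01, 7.06, 2.15 and 5.45 in null libraries 1 to 5. Only null library 3 reached into the wild-type range, and 2 null libraries were at 2 read pairs or fewer. The *Prtn3* means were 7.41 ± 1.01 and 4.21 ± 2.53, a log2 ratio of -0.82, and the wild-type libraries were unusually even, with a variance of 0.139 times their mean. *Elane* was near the limit of this depth, with 2, 0, 1, 1 and 0 read pairs in the wild-type libraries and 0 in each null library. The wild-type mean of *Elane* (0.758 ± 0.751) was 1.25 times the limit set by 3 counts over the null group. It rests on 4 read pairs, so no least difference between the genotypes can be given. The groups overlapped because 2 wild-type libraries were also at 0. The 3 granule enzyme genes together summed to 17.5 ± 3.98 (12.6 to 22.6) in wild type and 6.94 ± 3.07 (2.01 to 9.80) in null libraries, without overlap.

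The calgranulin genes varied more among wild-type embryos than they differed between genotypes. *S100a8* (chromosome 3, 90668978 to 90670035, plus strand) and *S100a9* (90692632 to 90695721, minus strand) lie 22596 bases apart and encode the subunits of calprotectin, a metal-binding protein that makes up much of the neutrophil cytosol. *S100a8* had 13, 4, 0, 1 and 2 read pairs in wild-type libraries 1 to 5 and 1, 1, 2, 4 and 1 in the null libraries. *S100a9* had 12, 6, 3, 0 and 0 read pairs in the wild-type libraries and 2, 1, 0, 2 and 6 in the null libraries. Wild-type library 1 alone held 65% of the wild-type read pairs of *S100a8* and 57.1% of those of *S100a9*. The mean normalized counts were 3.66 ± 4.51 and 1.86 ± 1.43 for *S100a8* and 3.86 ± 4.40 and 2.30 ± 2.51 for *S100a9*, log2 ratios of -0.97 and -0.75. Without wild-type library 1 these ratios were 0.09 and 0.05, so that the direction in both calgranulin genes rested on this library. The ratios also moved the other way, to -1.55 for *S100a8* without null library 4 and to -1.64 for *S100a9* without null library 5. The wild-type variance was 5.56 times the mean for *S100a8* and 5.02 times for *S100a9*, against 0.672 times for *Mpo*.

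*Itgam* had the most read pairs of the 6 granulocyte genes and was also lower in every null library. It lies on chromosome 7 (128062640 to 128118491, plus strand) and encodes CD11b, the alpha chain of the beta2 integrin Mac-1, which neutrophils, monocytes and macrophages use for adhesion and for uptake of complement-coated particles. Wild-type libraries 1 to 5 held 27.0, 24.2, 48.9, 23.7 and 21.7 normalized counts, and null libraries held 20.7, 11.1, 10.1, 16.1 and 16.3. The highest null library (20.7, from 23 read pairs) was below the lowest wild-type library (21.7, from 21 read pairs) only after division by the size factors. In read pairs, these groups overlapped. Wild-type library 3 stood far above the rest with 32.4% of the wild-type read pairs. The means were 29.1 ± 11.2 and 14.9 ± 4.33, a log2 ratio of -0.97, and the fitted difference was -0.90 (SE 0.248). Without wild-type library 3 and null library 2, the libraries that stood apart in lung, erythroid and platelet markers, the ratio was -0.61 and the groups still did not overlap.

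CD11b pairs with CD18, the product of *Itgb2*, which was picked for comparison after its values had been seen. *Itgb2* averaged 25.8 ± 6.29 in wild type and 24.5 ± 3.38 in null libraries. Within a library, *Itgam* read pairs per 100 *Itgb2* read pairs were 119, 96.2, 133, 100 and 105 in wild type and 88.5, 50, 40, 53.6 and 75 in null libraries. The *Itgam* to *Itgb2* ratio was thus lower in each null library than in each wild-type library, with means of 111 ± 15.4 and 61.4 ± 19.8. *Itgam* alone already did not overlap, and *Itgb2* was picked with its similar means known, so the ratio is no separate support.

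The fitted genes were the 12407 protein-coding genes with derived counts and a mean of at least 1, of which 9 of the 10 described here were part and *Elane* was not. Null libraries were all below wild-type libraries in 2 of the 9, *Mpo* and *Itgam*, and in 0.379% of all fitted genes. The mean log2 value was lower in null hearts in 8 of the 9, all but *Fcgr2b*, and in 52.8% of all fitted genes. The median difference was -0.32 on the log2 scale over the 9 and -0.0066 over all fitted genes. None of the 9 was among the 3 genes called over all fitted genes by limma at an FDR of 5% (0.0242% of them). These were *Nos1ap* and *Gm7694*, lower in null (0.0161%), and *Mt2*, higher (0.00806%). Since the genes were chosen for this contrast, nothing is read from these counts.

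**Figure D1:**
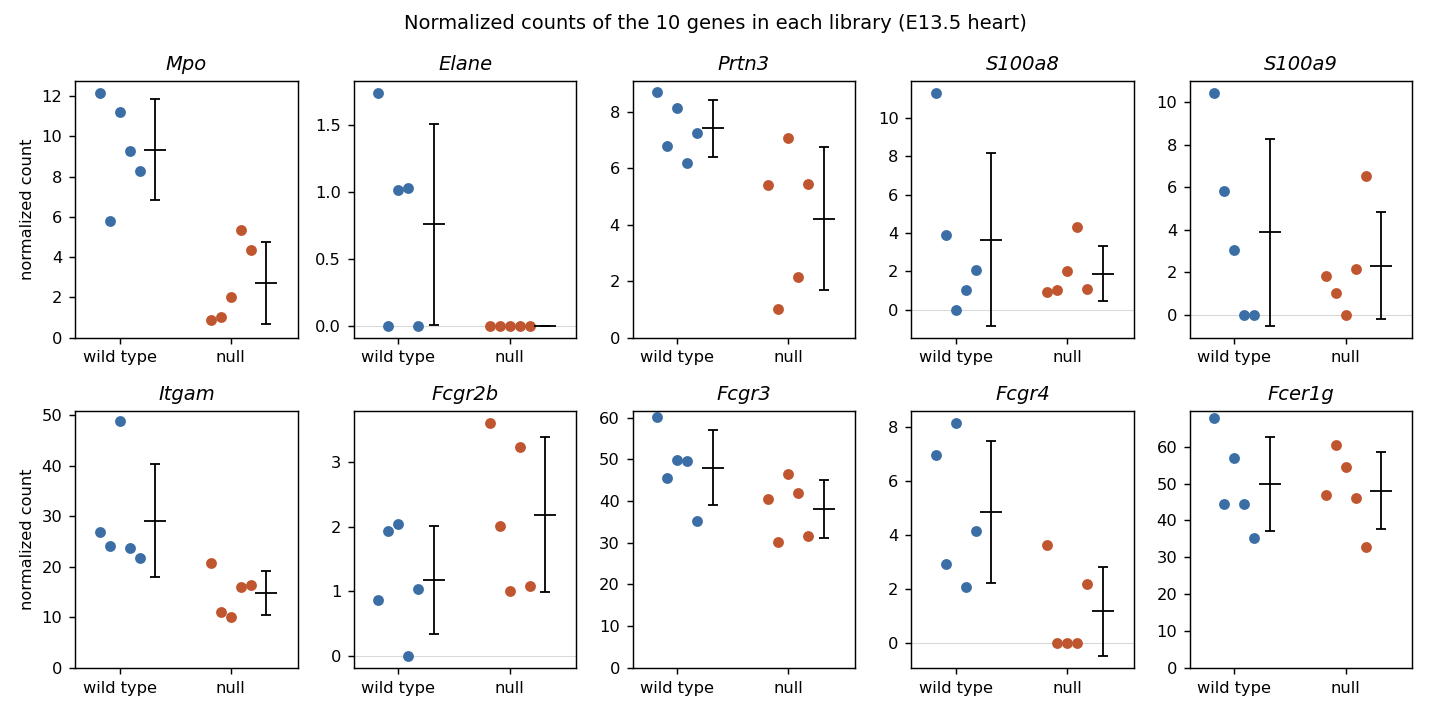
Normalized count (y axis, read pairs divided by the size factor) of each of the 10 genes in the 5 wild-type (blue) and 5 *Nos1ap* null (red) libraries, in the order of their numbers, with mean and SD as bars, which reach below 0 where SD exceeds the mean. In *Mpo* and *Itgam* the null points all lie below the wild-type points, in *S100a8* and *S100a9* wild-type library 1 stands highest, and the points of *Fcer1g* cover the same range in both genotypes.

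The Fc receptor genes lie in 1 cluster on the chromosome that carries *Nos1ap*, and they showed no common difference. From *Nos1ap* (chromosome 1, 170302668 to 170589861, minus strand) outward stand *Fcgr2b* (170958617 to 170976547, minus strand), *Fcgr4* (171018920 to 171029761, plus strand), *Fcgr3* (171051174 to 171064935, minus strand) and *Fcer1g* (171229572 to 171234365, minus strand). Their distances from *Nos1ap* are 368.8, 429.1, 461.3 and 639.7 kb, so all 4 lie on the chromosome 1 segment next to the targeted locus.

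*Fcgr4* encodes FCGR4, an activating receptor of neutrophils and monocytes for immunoglobulin G2a and G2b. Wild-type libraries 1 to 5 held 6.96, 2.90, 8.14, 2.06 and 4.14 normalized counts of *Fcgr4*, and null libraries 3.60, 0, 0, 0 and 2.18. Reads were thus present in every wild-type library and in 2 null libraries, and these 2 lay within the wild-type range. In all, 25 read pairs in wild type stood against 6 in null libraries, and the means were 4.84 ± 2.61 and 1.16 ± 1.66, a log2 ratio of -2.07. Without null library 1, which held 4 of the 6 null read pairs, the ratio was -3.15.

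*Fcgr3* encodes FCGR3, the low-affinity activating receptor of macrophages, neutrophils and natural killer cells. Its values were 60.0, 45.5, 49.9, 49.5 and 35.2 in wild-type libraries 1 to 5 and 40.5, 30.2, 46.4, 41.9 and 31.6 in null libraries. The groups overlapped, since wild-type library 5 was below 3 null libraries. The *Fcgr3* means were 48.0 ± 8.96 and 38.1 ± 6.96, a log2 ratio of -0.33.

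*Fcgr2b* encodes the inhibitory receptor, which carries its own signalling motif in the cytoplasmic tail, and was close to the detection limit. It had 1, 2, 2, 0 and 1 read pairs in the wild-type libraries and 4, 2, 1, 3 and 1 in the null libraries, the reverse direction of the activating receptors, with overlap. The *Fcgr2b* means were 1.18 ± 0.839 and 2.19 ± 1.19, a log2 ratio of 0.90 from 6 and 11 read pairs.

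*Fcer1g* encodes the common gamma chain, through which FCGR3 and FCGR4 signal and which they need to reach the cell surface. Its values were 67.9, 44.5, 57.0, 44.4 and 35.2 in wild-type libraries 1 to 5 and 46.8, 60.3, 54.4, 46.2 and 32.7 in null libraries. Both groups covered nearly the same range, and the *Fcer1g* means of 49.8 ± 12.7 and 48.1 ± 10.4 differed by less than the SD of either group. The log2 ratio was -0.05 with all libraries and took values from -0.15 to 0.09 when single libraries were left out. In read pairs of the same library, *Fcgr3* per 100 of *Fcer1g* was 98.0 ± 10.1 in wild type and 81.8 ± 18.3 in null, with overlap.

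*Fcgr3* and *Fcgr2b* share coding sequence, which is shown because read pairs that fall in it cannot be placed in 1 gene by sequence alone. The longest identical run between the transcripts Fcgr3-201 (bases 313 to 441) and Fcgr2b-201 (bases 402 to 530) is 129 bases long and lies wholly within the coding sequence of both. It is given on the strand of the transcripts.
*Fcgr3* and *Fcgr2b*: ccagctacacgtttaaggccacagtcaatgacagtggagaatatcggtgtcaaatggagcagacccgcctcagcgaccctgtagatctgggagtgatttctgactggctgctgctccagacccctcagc

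Of all windows of 100 bases in its annotated transcripts, *Fcgr3* shared 44 with *Fcgr2b*, which is 2.70% of its windows and 1.14% of those of *Fcgr2b*. Of windows of 50 bases the pair shared 166, 10.2% and 4.48% of their windows. No other pair among the 10 genes shared a window of either length. The values of *Fcgr2b* are the more uncertain ones, since *Fcgr3* had 247 read pairs in wild type and 189 in null, against 6 and 11 of *Fcgr2b*, and RSEM, the program the authors used, divides such read pairs between genes by estimate.

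Between *Nos1ap* and *Fcer1g* lie 16 protein-coding genes, of which 13 are not Fc receptor genes described here and 9 of these were fitted. Of the 9, 6 had a higher and 3 a lower mean log2 value in null hearts, none was called, and none had an unadjusted p below 0.05 by limma. Their median difference was 0.07, and that of *Nr1i3*, a nuclear receptor of the liver, was 0.63 (SE 0.509). *Atf6*, *Dusp12*, *Tomm40l* and *Pcp4l1*, with means above 100, lay between -0.05 and 0.07.

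**Figure D2:**
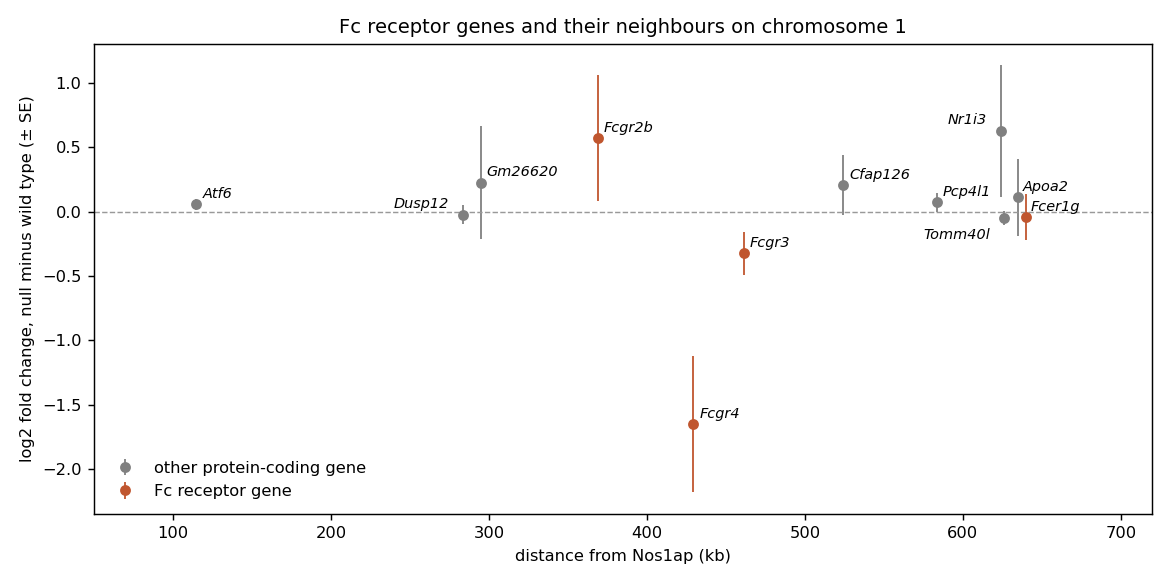
Fitted log2 difference, null minus wild type (y axis, bars are SE), of Fc receptor genes (red) and other fitted protein-coding genes with a mean above 0 in both genotypes (grey) against distance from *Nos1ap* in kb (x axis). *Fcgr4* lies lowest at -1.65, *Fcgr2b* at 0.57, *Fcgr3* at -0.32 and *Fcer1g* at -0.04, with grey points on both sides of 0.

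Counts compare between genes only per length of transcript. Per kb of annotated exon, *Fcer1g* was the highest in wild type with 57.0 ± 14.6 normalized counts per kb, followed by *Fcgr3* with 27.7 ± 5.16, and their ranges did not overlap. *S100a9* (7.40 ± 8.43), *Itgam* (5.79 ± 2.23), *S100a8* (5.27 ± 6.50), *Prtn3* (4.28 ± 0.586), *Fcgr4* (3.85 ± 2.08), *Mpo* (2.73 ± 0.732), *Elane* (0.770 ± 0.763) and *Fcgr2b* (0.203 ± 0.145) followed. Among these 8, each overlapped its neighbour in the order. The order in null libraries was the same but for the last places, where *Fcgr2b* (0.378 ± 0.206 per kb) stood above *Elane* at 0. With the longest transcript as length, *S100a8* and *Prtn3* moved above *Itgam* and the other genes kept their places.

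Summed over genes, the granulocyte values of the genotypes did not overlap and the Fc receptor values did. This is a description only, since the genes were chosen with this contrast known. The granulocyte sum also takes in *Mpo* and *Itgam*, which did not overlap on their own. The 6 granulocyte genes summed to 71.3, 46.5, 72.3, 41.3 and 39.3 normalized counts in wild-type libraries 1 to 5 and to 29.7, 15.1, 21.2, 30.1 and 33.8 in null libraries. All null sums were below all wild-type sums, and the means were 54.1 ± 16.3 and 26.0 ± 7.63, a log2 ratio of -1.06. *Itgam* made up more than any other gene of this sum, and without it the sums were 25.0 ± 11.1 and 11.1 ± 5.07 and remained apart only by 17.4 against 17.5. The 4 Fc receptor genes summed to 136, 94.9, 117, 96.0 and 75.5 in wild type and to 94.5, 92.5, 102, 91.3 and 67.5 in null, means of 104 ± 23.1 and 89.5 ± 13.0, with overlap. Without wild-type library 3 and null library 2, the log2 ratio of the granulocyte sum was -0.79 and the groups did not overlap, and that of the Fc receptor sum was -0.18.

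Summed markers of all leukocytes and of macrophages overlapped between the genotypes. Of the pan-leukocyte markers, 5 of 5 were fitted, 1 higher and 4 lower in null, none called and none at 0, and their sums were 272 to 389 in wild type and 269 to 397 in null. Of the tissue macrophage markers, 11 of 12 were fitted, 3 higher and 8 lower, none called, and their sums were 1266 to 1440 and 1251 to 1418. Granulocyte read pairs per 100 pan-leukocyte read pairs were 13.0 to 21.2 in wild type and 3.80 to 12.3 in null libraries, and per 100 macrophage read pairs 3.05 to 5.02 and 1.06 to 2.63, both without overlap. Without *Itgam* both ratios overlapped, at 5.54 to 13.2 and 1.01 to 6.35 per 100 pan-leukocyte read pairs. Fc receptor read pairs per 100 pan-leukocyte read pairs were 32.2 ± 4.84 and 29.6 ± 5.87, with overlap. Monocyte markers (3 of 4 in the table, 2 fitted, 1 higher and 1 lower in null) summed to 12.4 to 22.3 and 10.8 to 22.9. Of the fitted ones, *Ccr2* had a difference of -0.91 (SE 0.412, limma adjusted p = 0.998) and *Plac8* one of 0.22 (SE 0.312). Both were named after their values were seen.

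Of markers of platelets, erythroid cells and lung epithelium, none was called. All 9 fitted platelet markers had a higher mean log2 value in null hearts, with a median difference of 0.39, and summed to 173 to 319 in wild type and 190 to 473 in null. *Tubb1*, the beta tubulin of platelets, named after its value was seen, had the smallest adjusted p among them (0.84, SE 0.229, limma adjusted p = 0.883). The 3 erythroid markers with derived counts were all higher on the log2 scale, with a median difference of 0.34, summing to 97.2 to 300.3 and 88.7 to 455, while read pairs could not be derived for the other 9 of the 12 in the table. By the authors' group means, which carry no SD here, 8 of these 9 were also higher in null, among them *Hbb-bh1* (1132 in wild type and 2652 in null, a log2 ratio of 1.23), *Hba-x* (0.97), *Slc4a1* (0.79) and *Hbb-y* (0.73), all chosen after their values were seen. Of the adult beta globin genes, *Hbb-bs* was lower (22590 and 20045, -0.17) and *Hbb-bt* higher (12997 and 14949, 0.20), both named after their values were seen. Lung epithelium markers (3 of 6 in the table, *Sftpb* listed at 0 in null) summed to 3.87 to 22.4 and 1.01 to 7.04. The part of these in the granulocyte values was not tested, beyond the values without wild-type library 3 and null library 2 given above.

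**Figure D3:**
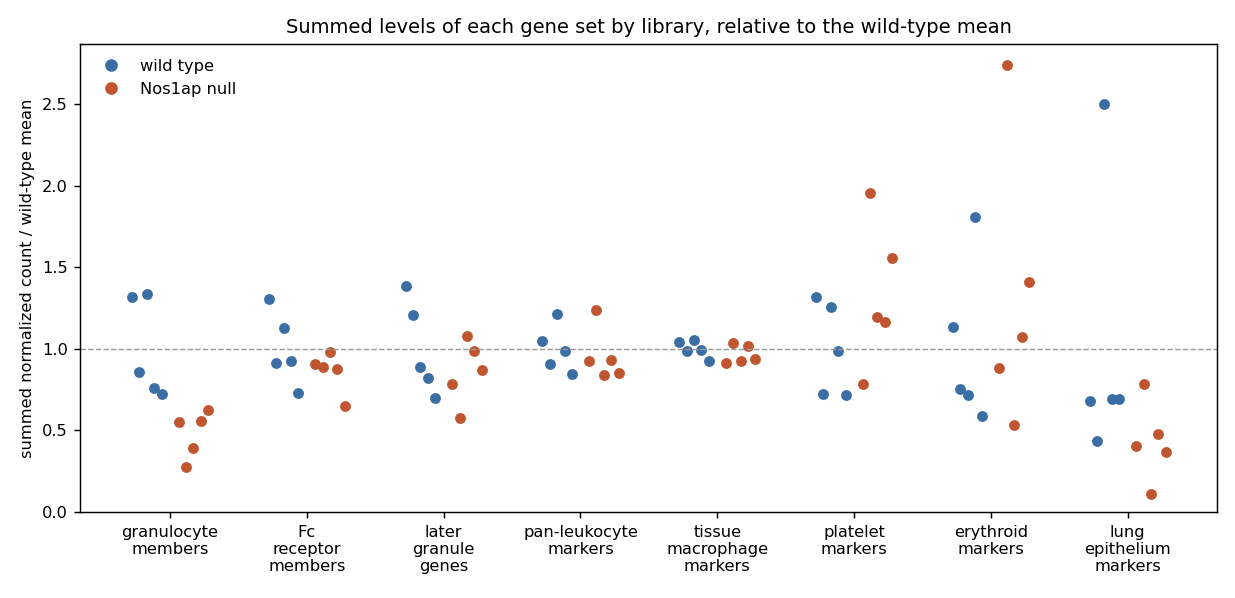
Summed normalized count of each gene set in each library divided by the wild-type mean of that set (y axis), wild type in blue and *Nos1ap* null in red, libraries in the order of their numbers; the erythroid set holds only the 3 genes with derived counts. The null points of the granulocyte genes all lie below the wild-type points, those of the other sets overlap, and wild-type library 3 in lung markers and null library 2 in erythroid and platelet markers stand highest.

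Further genes of the same pathways were taken from 6 lists, with 62 genes in all, of which 54 were in the table and 44 were fitted. Of the 44, 23 had a higher and 21 a lower mean log2 value in null hearts, the median difference was 0.00099, and the smallest adjusted p by limma was 0.998. None was called. By unadjusted p below 0.05, limma gave 1 of them, *Fermt3*, and limma with voom weights none, while over all fitted genes 462 and 442 passed. In none of the 44 were all null libraries below all wild-type libraries.

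Early granule and precursor genes had a median difference of -0.09, with 2 of 6 fitted genes higher and 4 lower. *Ctsc*, the protease that activates the granule serine proteases, averaged 361 ± 32.7 in wild type and 363 ± 28.4 in null, and *Lyz2*, lysozyme of macrophages and granulocytes, 309 ± 29.6 and 299 ± 23.1. Closer to *Elane* and *Prtn3* in function, the granule protease gene *Ctsg* had 1.79 ± 0.882 and 1.03 ± 0.774, which overlapped; it was named after its value was seen. Later granule genes had a median of -0.16, with 1 of 4 higher and 3 lower. *Padi4*, which citrullinates histones in neutrophils, averaged 25.4 ± 3.48 and 23.2 ± 4.58, and *Mmp9*, a gelatinase of tertiary granules, 6.53 ± 4.34 and 8.21 ± 5.26. *Camp*, *Lcn2* and *Mmp8* were below a mean of 1, and *Chil3*, *Itgb2l* and *Ly6g* were not analysed here.

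Granulocyte receptors and regulators had a median of -0.03, with 4 of 8 higher and 4 lower. *Irf8*, a transcription factor of monocyte fate, averaged 71.3 ± 8.25 and 75.2 ± 3.84. *Csf2rb*, the shared beta chain of the GM-CSF receptor, averaged 26.0 ± 8.98 and 48.2 ± 53.3, where null library 2 reached 143 and the lowest was at 16.1. That library also held the most erythroid and platelet marker counts. The receptor of G-CSF, *Csf3r*, named after its value was seen, averaged 9.60 ± 1.53 and 6.76 ± 4.09, with overlap. *Cxcr2*, *Fpr1* and *Fpr2*, also named after their values were seen, were below a mean of 1 and rest on few read pairs. Their means were 0.932 and 0.798, 0.554 and 0, and 0.348 and 0. Beta2 integrin and NADPH oxidase genes had a median of -0.03, with 5 of 10 on each side. *Cyba*, a membrane subunit of the oxidase, averaged 336 ± 14.8 and 337 ± 31.5, and *Fermt3*, which activates integrins in blood cells and platelets, 65.3 ± 15.0 and 87.5 ± 23.3, a difference of 0.40 (SE 0.188). The highest *Fermt3* value, 119, was in null library 2 as well, and the part of that library in the difference was not tested.

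Other Fc receptor genes had a median of -0.04, with 2 of 4 on each side. *Fcgrt*, the neonatal receptor that recycles immunoglobulin G, averaged 238 ± 15.9 and 239 ± 21.0, and *Trim21*, a cytosolic antibody receptor, 62.8 ± 7.14 and 56.8 ± 11.1. Genes of signalling through activating (ITAM) and inhibitory (ITIM) motifs had a median of 0.03, with 9 of 12 higher and 3 lower. *Syk*, the kinase recruited to the phosphorylated gamma chain, averaged 442 ± 24.1 and 474 ± 39.6, and the Src family kinase gene *Lyn* 299 ± 26.9 and 317 ± 28.0. The plot of differences places these lists beside the 10 genes.

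**Figure D4:**
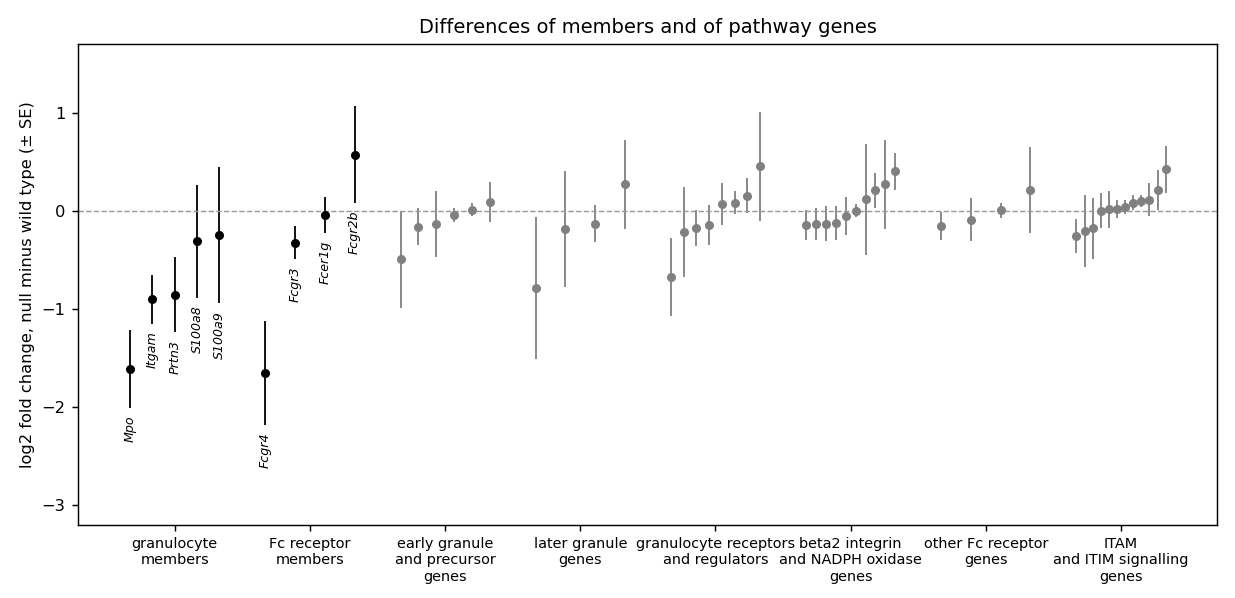
Fitted log2 difference, null minus wild type (y axis, bars are SE), of the 9 fitted genes of the granulocyte and Fc receptor sets (black, named) and of 44 genes of 6 pathway lists (grey). *Mpo* at -1.61 and *Fcgr4* at -1.65 lie lowest, and the medians of the grey lists lie between -0.16 and 0.03.

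Deviations of the granulocyte sum from its group means, over 10 libraries and 10172 fitted genes with a mean of at least 10, were closely matched by those of *Kcnab1* (Pearson r of 0.926), *Lzts3* (0.919), *Slc25a22* (0.914) and *Aldh4a1* (0.895), which were among the 5 most like it. The same measure was 0.551 with the sum of later granule genes, 0.144 with that of macrophage markers and -0.025 with that of pan-leukocyte markers, and it lay between -0.24 and 0.21 with the sums of erythroid, platelet, hepatocyte and lung epithelium markers. The Fc receptor sum was most like *Mydgf* (0.941), *Usp29* (0.926), *S1pr2* (0.923), *Tmem37* (0.920) and *Mrps18b* (0.916), and had -0.561 with hepatocyte markers, 0.546 with macrophage markers, 0.518 with pan-leukocyte markers, 0.476 with later granule genes, 0.32 with platelet markers, 0.142 with lung epithelium markers and -0.012 with erythroid markers. These values describe 10 libraries that share group means and depth, and the leading genes were the highest of many compared.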

How the data were processed

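Hearts of 5 wild-type and 5 *Nos1ap* null embryos were sequenced as paired-end stranded polyA libraries, grouped here by the genotype in the labels. After trimming (Trimmomatic 0.36), the authors ran RSEM 1.2.31 with STAR on GENCODE M10 transcripts of GRCm38, and tested the gene counts with DESeq 1.24.0. Only their comparison table was used. Its signal values, as the authors deposited them, are mean normalized counts per group, that is, read counts divided by a size factor and averaged. The table also holds the ratio (fold change) of these means, its log2 value, and the p-value with its adjusted form, which the authors computed and deposited; these 4 columns were not used.

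Whole read pairs per library were derived from the digits of the group means below 1000. They were unique for 98.3% of 20551 wild-type and 98.8% of 20535 null means, the 10 genes described among them. In simulated data the search gave 19083 of 19616 and 18911 of 19404 sets right and none wrong. Genes not derived differed more: 7.71% of 467 had an absolute log2 ratio over 0.5, against 2.76% of 11167 derived. Depth was estimated from the size factors and the summed means.

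Protein-coding genes with a mean of at least 1 (12407) were fitted with limma 3.58.1 in R 4.3.3 on log2(normalized count + 1), with trended robust moderation and Benjamini-Hochberg adjustment, after a check on simulated data. Log2 fold changes on this scale understate those of low genes. The 10 genes and all lists (6 of pathways, 11 of cell types) were chosen with earlier results of these data known. The names given are the 10 genes, *Nos1ap*, genes called, the 2 genes of highest mean in each pathway list, the genes between *Nos1ap* and *Fcer1g*, and the 5 genes most like each sum; others are marked, and a few genes meeting the rule are left out of the text. Alternatives changed the filter, pseudocount, weights, gene types, FDR, scaling, summing and length, and left out each library. Positions are from GENCODE M21 (GRCm38), promoters from RefSeq. Reads were amplified by PCR without molecular identifiers, so the floor of 3 counts covers counting error only.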

Additional observations from a re-analysis of the deposited data

Results flagged for a closer look

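*Itgam* in wild-type library 3, at 48.9 normalized counts, stood apart from the other wild-type libraries. Its gap to the next library (27.0) was 0.807 of the range of the group, above the 0.71 that Dixon's test requires for 5 samples. It was the only one of 26 groups of values checked, and chance gives about 1 in 20. The same library held the most lung epithelium marker counts (22.4, all of *Epcam* and *Foxa2*), and the part of this in the *Itgam* value was not tested. Without that library and null library 2, the *Itgam* means were 24.2 and 15.8.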

How the results depend on the processing

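No paired analysis was possible because the group means carry no replicate numbers. The count of 3 called genes was 3 under a mean of at least 10, no filter, a pseudocount of 0.5, voom weights, upper-quartile scaling and FDR 1% with an absolute log2 fold change over 1, 4 with genes of every type, and 3 to 4 with single libraries left out. No pathway gene was called in any of these. Of 135 alternatives of the log2 ratios of 9 of the genes (*Elane*, at 0 in null, has no ratio), 133 moved by less than the spread between replicates, and the others were *S100a8* without wild-type library 1 (0.09) and *Fcgr4* without null library 1 (-3.15). The sign turned in 5: *S100a8* (0.09), *S100a9* (0.05) and *Fcer1g* (0.09) without wild-type library 1, and *Fcer1g* without wild-type library 3 (0.0031) or null library 5 (0.06). With single libraries left out, the log2 ratio ran from -1.17 to -0.92 for the granulocyte sum, -0.31 to -0.10 for the Fc receptor sum, -2.18 to -1.55 for *Mpo*, -1.08 to -0.56 for *Prtn3*, -1.55 to 0.09 for *S100a8*, -1.64 to 0.05 for *S100a9*, -1.12 to -0.70 for *Itgam*, -0.43 to -0.24 for *Fcgr3*, -3.15 to -1.74 for *Fcgr4*, 0.57 to 1.19 for *Fcgr2b* and -0.15 to 0.09 for *Fcer1g*. Leaving out wild-type library 3 and null library 2 together was chosen after seeing the data. Depth limits *Elane*, *Fcgr2b*, *Fcgr4* and the calgranulin genes, which had 32 read pairs or fewer each over all libraries.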

Other observations

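Other marker lists are given as values of their sums, and none of their genes was called by limma (FDR 5%). Mast cell and basophil markers, with 4 of 8 fitted, 3 higher and 1 lower in null hearts, summed to 302 ± 9.88 normalized counts in wild type and 313 ± 18.8 in null (SD, n = 5 libraries each), most of it *Gata2*, which endothelial cells express too. Eosinophil markers, with 1 of 8 fitted, summed to 3.87 ± 2.85 and 4.95 ± 3.34. Lymphoid markers, with 2 of 8 fitted and both lower, summed to 8.61 ± 0.973 and 7.50 ± 3.34. Fetal liver hepatocyte markers, with 6 of 10 fitted, 2 higher and 4 lower, summed to 63.5 ± 29.5 and 44.5 ± 9.21. In all 4 lists the groups overlapped. Among the genes most like the granulocyte sum, *Lzts3* had the smallest unadjusted p for genotype (log2 difference -0.28, SE 0.123, limma adjusted p = 0.998).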
